A study of Drosophila melanogaster with 2 samples.

Results

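The HMG-box chromatin protein genes described here are HmgZ, HmgD, Dsp1 and Ssrp, 4 of the 13945 protein-coding genes on the 6 chromosome arms of Drosophila melanogaster. Binding of the CG32767 protein was measured by ChIP-seq, in which protein-bound DNA is pulled down with an antibody, sequenced and summarised as peaks. The material was whole embryos of 0 to 24 h from a transgenic strain that carries a CG32767-eGFP fusion, the antibody was directed against GFP, and there were 2 biological replicates of this 1 group. The peaks therefore describe the tagged protein, averaged over all embryonic stages and cell types of that window, and the sources used here do not give what drives the fusion. All 4 symbols were found in the annotation, and every peak whose summit lay in a gene or within 5 kb of it was taken for that gene. The genes were chosen by the peak signal of these same lists, so their counts, signals and ranks are given as a description, without a test.

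HMG-box proteins bind the minor groove of DNA and bend it, most of the chromatin-bound ones with little sequence preference. HmgD and HmgZ are the small fly counterparts of the vertebrate HMGB proteins. HmgD is abundant in the early embryo, where it is associated with chromatin before the somatic linker histone accumulates. Dsp1 carries a pair of HMG boxes and is known as a co-repressor that works with Dorsal and Groucho and that helps to recruit Polycomb group proteins. Ssrp is the HMG-box subunit of FACT, a histone chaperone that lets polymerases pass nucleosomes.

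CG32767-eGFP peaks were found at 3 of the 4 genes. The conservative list, which holds 3533 peaks that passed a comparison of both replicates, had 9 distinct summits at HmgZ, HmgD and Dsp1, and none in or within 5 kb of Ssrp. In that list 39.0% of all protein-coding genes had a summit in the gene or within 5 kb. The same 3 genes had summits in the list of replicate 1 alone, where the share over all protein-coding genes was 34.9%, and in that of replicate 2 alone, where it was 30.4%. Of the 9 conservative peaks, 7 had a signal above the list median of 104.8, and their own median was 193.8. Signal is the peak caller's own enrichment value and orders peaks only within 1 list.

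HmgZ and HmgD overlap each other on opposite strands. HmgZ (FBgn0010228, chr2R:21697488-21707861, minus strand, dm6) has 4 transcripts from 3 transcription start sites (TSSs). HmgD (FBgn0004362, chr2R:21701458-21716727, plus strand) has 4 transcripts from 3 TSSs. The spans share 6404 bp of a union of 19240 bp, because the long first intron of HmgD-RD runs through the upstream part of HmgZ. Peaks there belong to both genes by position, and the data do not assign them to either. There were 6 of these sites, of which 5 counted for HmgZ and all 6 for HmgD, numbered here in order along the arm. At least 5 summits were found at 102 protein-coding genes, or 0.731% of all. Most of those were long genes, with a median span of 28298 bp against 2166 bp over all protein-coding genes, and 33 of the 102 had a span no longer than the 15270 bp of HmgD.

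The strongest peak lay between the HmgZ start sites. Site 2 (chr2R:21703166-21703637) had a signal of 975.9, rank 11 of the 3533 conservative peaks. It ranked 6 of 2887 in replicate 1 with a signal of 655.7 and 30 of 2624 in replicate 2 with a signal of 322.8. Its summit was 599 bp upstream of the TSS shared by HmgZ-RA and HmgZ-RC, 1072 bp downstream of the TSS of HmgZ-RB, and in introns of both genes. By summed conservative signal, HmgD with 1925 and HmgZ with 1776 ranked 5 and 7 among the 5433 protein-coding genes with a summit, and both sums include the same 5 sites.

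Site 3 was the only conservative summit within 500 bp of a start of either gene. It lay (chr2R:21704572-21704875) 183 bp upstream of the TSS of HmgZ-RB and had a signal of 355.5, rank 178. Replicate 1 gave it 129.8 and replicate 2 gave it 221.6, so the order of the replicates was opposite to that at site 2. Summits within 500 bp of a TSS were present for HmgZ and Dsp1, 2 of the 4 genes, and for 14.1% of all protein-coding genes.

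The remaining sites of the pair were weaker. Site 1 (chr2R:21700579-21700968), in the intron that all 4 HmgZ transcripts share and 684 bp upstream of the TSS of HmgD-RD, had a signal of 193.8, with 102.7 in replicate 1 and 101.7 in replicate 2. Site 4 (chr2R:21705922-21706311), 1616 bp upstream of the TSS of HmgZ-RB, had 176.3, with 81.47 and 83.17. Their ratios between the replicates were both inside the quartiles of all conservative peaks, which are given with the replicate comparison. Site 6 (chr2R:21714498-21714887), the one counted for HmgD alone, lay in the HmgD intron 557 bp downstream of the TSS of HmgD-RB and had 148.9, with 62.15 and 94.54. In replicate 2 it was split into peaks with summits at 21714618 and 21714819, which had signals of 94.54 and 47.67. Replicate 1 had 1 summit there, at 21714762.

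Site 5 (chr2R:21706687-21707076) was the least reproducible. It lay 979 bp downstream of the TSS of HmgZ-RD and had a signal of 74.68, rank 2827. Replicate 2 held it with 61.74, while replicate 1 held only an unselected candidate of 32.19. Its irreproducible discovery rate (IDR, the estimated share of peaks of that rank or better that would not recur) was 0.0039 in the conservative comparison, 0.0052 in replicate 2 and 0.03 in replicate 1, against the limit of 0.01 that the scores of the selected lists imply. Sites 1 to 5 spanned 6108 bp from the first summit to the last, with neighbours 765 to 2655 bp apart, and site 6 followed after a further 7811 bp.

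**Figure D1:**
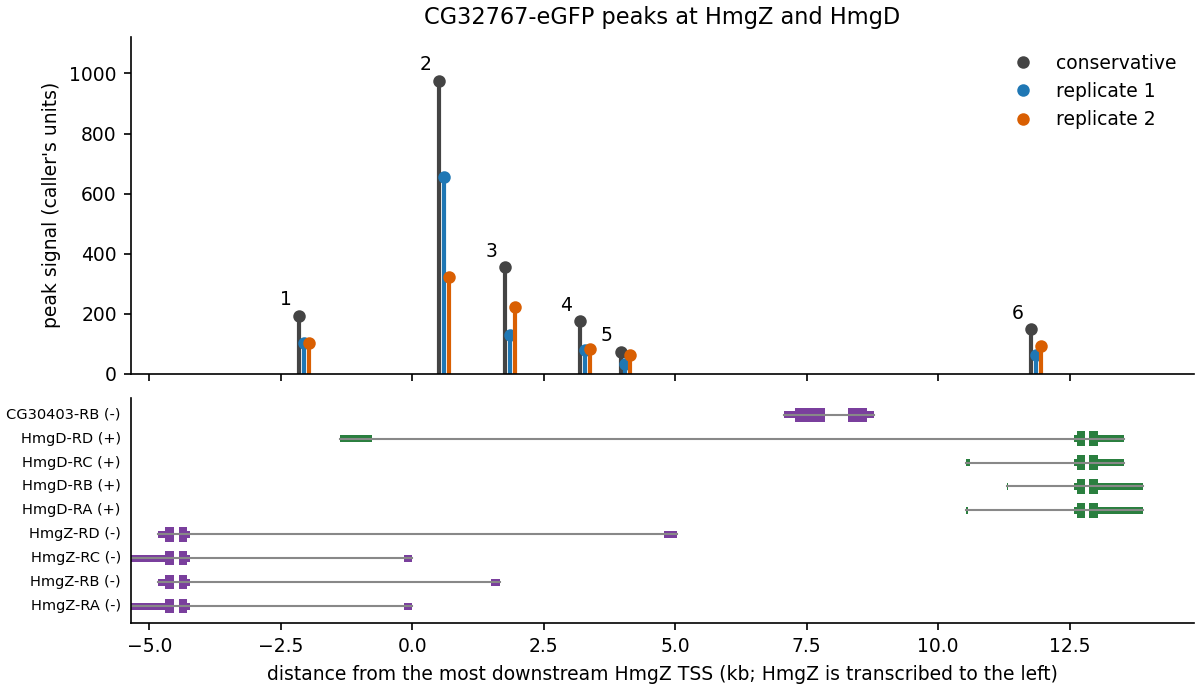
Signal of the 6 conservative peaks at HmgZ and HmgD (stems, in the peak caller's units; the 3 stems of a site stand side by side around its summit) above the transcripts of the region, where thick boxes are coding exons, thin boxes untranslated exons, lines introns, and signs the strand. The x axis is the distance in kb from the TSS of HmgZ-RA and HmgZ-RC. Site 2, with 975.9, stands above all others, and site 6 lies apart from sites 1 to 5.

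Dsp1 (FBgn0278608, chrX:16333612-16340624, plus strand) has 7 transcripts, of which 6 start at the same TSS and Dsp1-RF starts further downstream. It had 3 conservative summits, a number reached by 6.12% of protein-coding genes. Dsp1 site 2 (chrX:16333509-16333749) had its summit 2 bp downstream of the main TSS, in the 5′ UTR of those 6 transcripts, with a signal of 221.9 (rank 475), 107.6 in replicate 1 and 116.7 in replicate 2. The start of CG9921-RC, on the opposite strand, lies 12 bp from that TSS, so the summit is 14 bp upstream of CG9921 and belongs to both promoters by position.

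The other Dsp1 peaks lay to either side of the start. Dsp1 site 1 (chrX:16332882-16333069), 633 bp upstream of the main TSS and in an intron of CG9921, was slightly stronger than the promoter peak in the conservative list, with 231.5 (rank 425), 132.8 in replicate 1 and 101.7 in replicate 2. Replicate 2 put the promoter peak first and replicate 1 put the upstream peak first. Dsp1 site 3 (chrX:16335185-16335574) was in the Dsp1 intron, 1768 bp downstream of the main TSS and 804 bp upstream of that of Dsp1-RF. It had 98.32 (rank 1941), 58.31 in replicate 1 and 40.43 in replicate 2, where its IDR of 0.0088 was close to the limit. In summed signal Dsp1, with 551.8, ranked 468 of the genes with a summit.

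**Figure D2:**
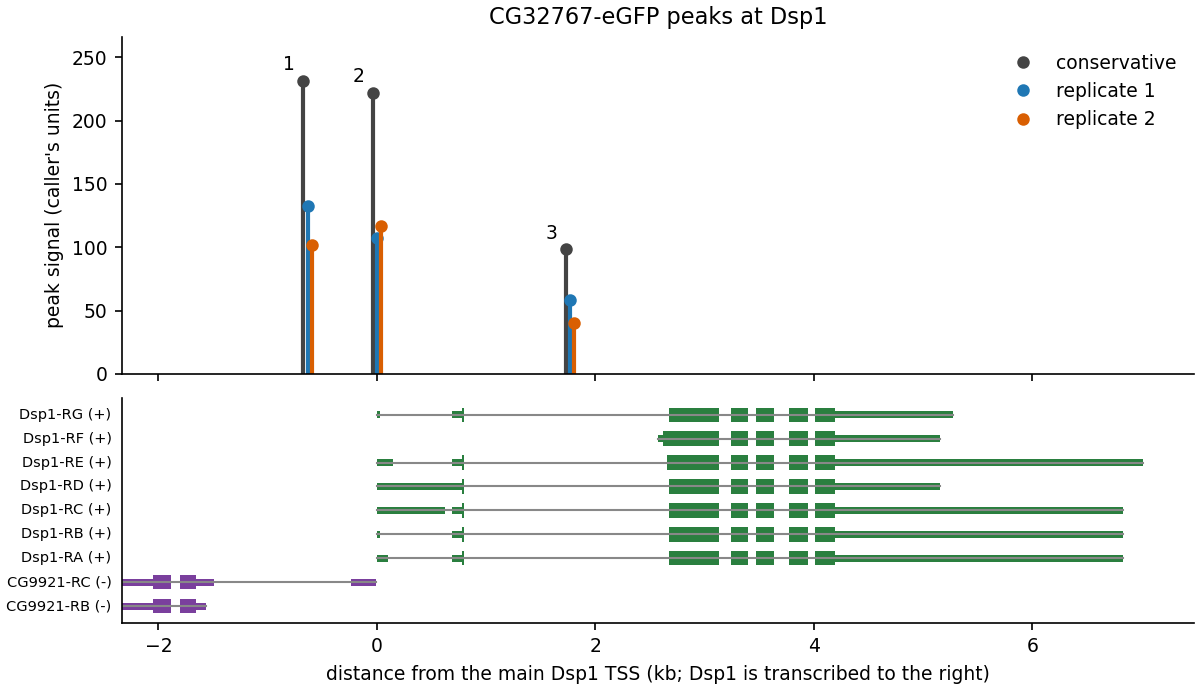
Signal of the 3 conservative peaks at Dsp1 (stems, in the peak caller's units; the 3 stems of a site stand side by side around its summit) above the transcripts of Dsp1 and of CG9921 on the opposite strand, drawn as coding exons (thick), untranslated exons (thin) and introns (lines). The x axis is the distance in kb from the main Dsp1 TSS. Sites 1 and 2, with 231.5 and 221.9, stand above site 3 with 98.32.

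The sequences under the Dsp1 summits are shown to set the letters at a promoter peak beside those at its neighbours; sequences at the other genes are not printed here. They are from RefSeq's dm6 sequence, plus strand, 50 bp to either side of the summit for sites 1 and 3 (chrX:16332929-16333029 and chrX:16335330-16335430) and 30 bases around the summit of site 2 (chrX:16333599-16333628). Capitals mark matches, on either strand, to the short motifs named in the next paragraph. In site 1 these are, from left to right, GAAAA, the Pho core and the Zelda core, all on the minus strand, and in site 3 both are GAAAA on the minus strand.
Dsp1 site 1: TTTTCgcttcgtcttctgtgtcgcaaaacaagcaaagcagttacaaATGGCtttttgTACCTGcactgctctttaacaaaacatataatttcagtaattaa
Dsp1 site 2: atacacatttatccgcccgtttggatttgg
Dsp1 site 3: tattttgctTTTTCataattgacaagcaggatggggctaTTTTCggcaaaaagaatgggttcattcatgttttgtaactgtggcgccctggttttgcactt

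The upstream site of Dsp1 held 3 different motifs, and the intronic site held GAAAA at 2 positions. Over the 9 windows of 101 bp at the HMG-box genes, GAAAA, the word described for Dsp1 itself at Polycomb response elements, was present in 4 (HmgZ-HmgD sites 1 and 2, Dsp1 sites 1 and 3), against 47.1% of 3531 conservative summit windows and 44.1% of 19252 promoter windows of the same length. GAGAG, the motif of GAGA factor, was present in 3 (HmgZ-HmgD sites 1, 4 and 6), against 13.0% and 12.7%. CGATA, the core motif of BEAF-32, was in 2 (HmgZ-HmgD sites 1 and 3), against 12.3% and 23.6%. GCCAT, the core of Pho sites, was in 2 (HmgZ-HmgD site 5 and Dsp1 site 1), against 13.9% and 16.8%. CAGGTA, the Zelda core, was in Dsp1 site 1 alone, against 2.24% and 2.0%.

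TATAAA and a run of 8 bases of A or of T were each found at HmgZ-HmgD site 2 alone, with 19.3% and 8.16% of the conservative summit windows holding them and 15.5% and 4.41% of the promoter windows. None of the 9 windows held TATCGATA, the DNA replication-related element, which 1.42% of summit and 4.48% of promoter windows held and which contains CGATA. Neither E-box searched was present, CACGTG being in 0.85% and 1.82% and CAGCTG in 3.77% and 8.77%. All motifs were searched on both strands. The 10 words of 7 letters most enriched in the other 3522 summit windows over flanking windows occurred in 2 of the 9 sites, HmgZ-HmgD sites 3 and 6. That was 22.2% of the sites, beside 21.9% of the other summit windows and 9.47% of flanking windows. Site 3 held ATACAGA and TACAGAA, which 2.95% and 2.36% of the other summit windows held. Site 6 held CTTAATA and ATATTAA, which 2.9% and 8.49% held.

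Base composition differed widely among the 9 sites. The strongest, HmgZ-HmgD site 2, had the lowest GC content, 24.8%, below the lower quartile of 27.7% over all conservative summit windows. The next strongest of the pair, site 3, had 58.4%, and site 4 had the highest, 65.3%. The median of the sites was 48.5%, beside a median of 34.7% and an upper quartile of 44.6% over all windows. Dsp1 site 1 had 34.7%, Dsp1 site 2 had 49.5% and Dsp1 site 3 had 39.6%.

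**Figure D3:**
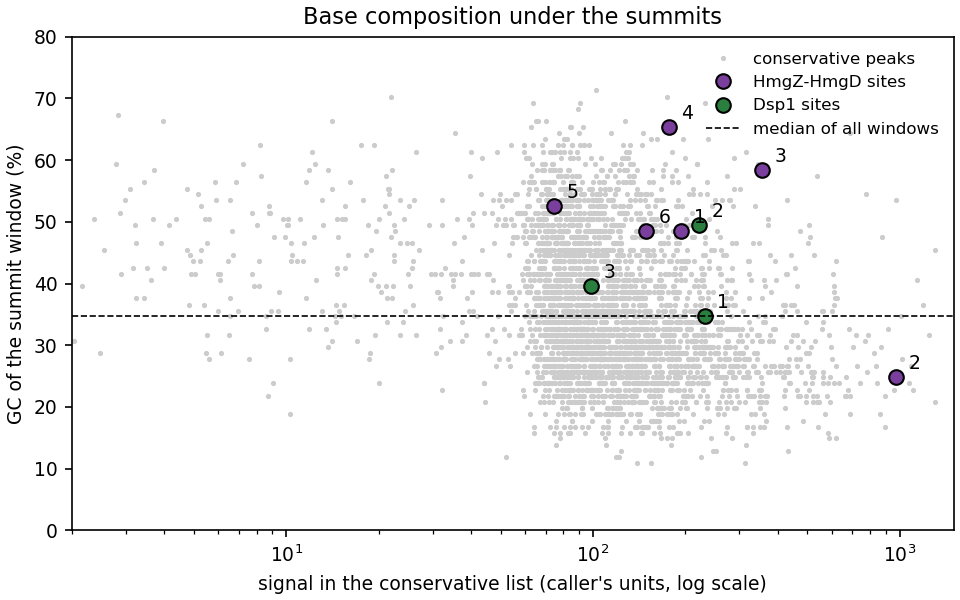
GC content of the 101-bp window around each conservative summit (y axis, %) against the signal in the conservative list (x axis, log scale), with all peaks in grey, the HmgZ-HmgD sites in purple and the Dsp1 sites in green, numbered as in the text. HmgZ-HmgD site 2 is at the lower right with 24.8% GC, and 7 of the other 8 sites lie above the dashed median of 34.7%.

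Most sites were selected in both replicates. Of the 9 peaks, 8 overlapped a peak of both replicate lists by at least 1 bp, the exception being HmgZ-HmgD site 5, and over all conservative peaks 1617 (45.8%) did. The genes were chosen by peak signal, and 7 of the 9 sites were above the list median, so these shares compare peaks of unlike signal. The log2 ratio of replicate 2 over replicate 1 was above 0 at 5 sites and below 0 at 4, with a median of 0.03. Over the 3490 conservative peaks with a candidate in both replicates the median was -0.22, with an SD of 0.62 and quartiles of -0.62 and 0.22. Site 2 had the lowest ratio of the sites, -1.02, and 7.28% of all peaks had a lower one. Site 5 had the highest, 0.94, with 95.6% of peaks lower, followed by site 3 with 0.77 and 92.6%. The Dsp1 sites had -0.38, 0.12 and -0.53. With 2 replicates and no stated common scale, these ratios were not tested.

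**Figure D4:**
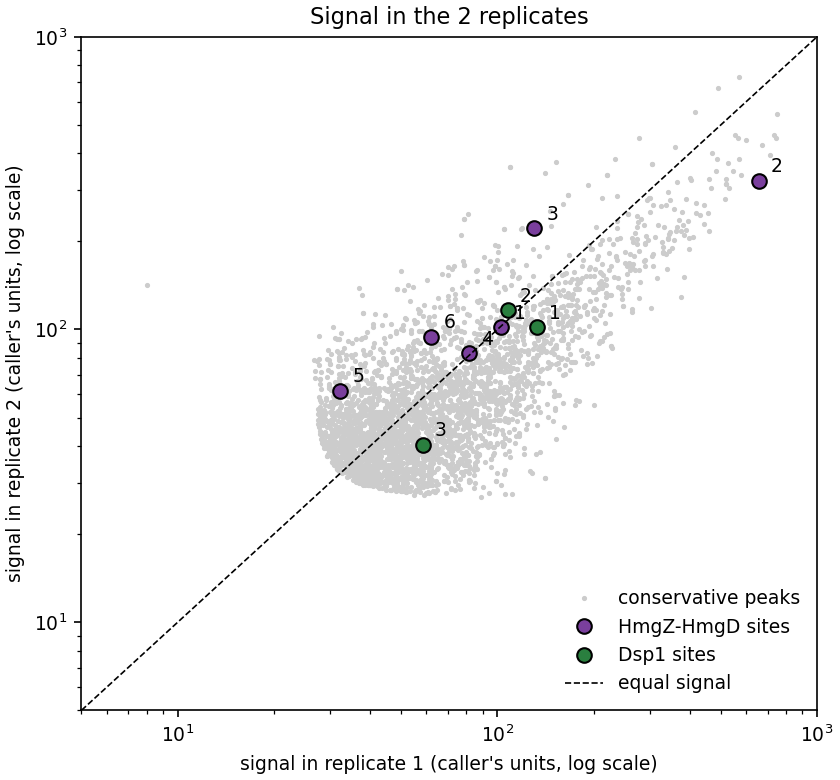
Signal in replicate 1 (x axis) and replicate 2 (y axis), both on log scales in the peak caller's units, for conservative peaks with a candidate in both replicates (grey), the HmgZ-HmgD sites (purple) and the Dsp1 sites (green). The dashed line marks equal signal, with HmgZ-HmgD site 2 (655.7 and 322.8) below it and site 3 (129.8 and 221.6) above it.

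Just outside the selection, candidates were compared by IDR only among the 3 strongest by signal of each gene. Among these, the one with the lowest IDR in the conservative comparison was in Dsp1. It lay in the intron 1157 bp downstream of the main TSS and had a signal of 62.92 and an IDR of 0.019, with 24.68 in replicate 1 and 42.25 in replicate 2. The strongest unselected candidate by signal, with 70.69, lay within 5 kb of HmgD in a coding exon of LBR and had an IDR of 0.64, and replicate 2 gave it 58.53 with an IDR of 0.045. Weaker candidates near HmgZ and HmgD were 58.79 in the 5′ UTR of CngB (IDR 0.035) and 54.49 at 860 bp upstream of the TSS of HmgZ-RD (IDR 0.72). In the longer comparison the order of these candidates by IDR differed, with 0.027 for the CngB candidate and 0.28 for the Dsp1 one. In the ranked list of replicate 2, a candidate of 39.99 lay 72 bp downstream of the TSS of HmgZ-RD, with an IDR of 0.018. The weakest selected site by signal was HmgZ-HmgD site 5, with 74.68 and an IDR of 0.0039 against the limit of 0.01.

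Ssrp (FBgn0010278, chr2R:23806361-23809004, minus strand) had no peak in any of the 4 selected lists. The unselected ranked lists held 13 candidates in or within 5 kb of it in the conservative comparison, 14 in replicate 1 and 5 in replicate 2. The strongest, with 43.06 (rank 9985 of 121998, IDR 0.44), lay in a coding exon of the neighbouring gene pippin. Its IDR was 0.032 in the longer comparison. Replicate 1 gave it 36.72 with an IDR of 0.031, and replicate 2 gave 13.7 at nearly the same summit, with an IDR of 0.85. Within Ssrp the strongest had 25.54 (rank 34412, IDR 0.35), in a coding exon 872 bp downstream of the TSS. Replicate 1 reached 19.79 within the gene and replicate 2 reached 13.43. No peak at Ssrp was detected under this selection, at a depth that the files do not give. The gene of its FACT partner, dre4 (Spt16), had a conservative promoter summit 137 bp upstream of its TSS with 70.34, and with 35.96 in replicate 1 and 30.97 in replicate 2.

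Related genes were counted over lists drawn up by function, with earlier results of these data known. Of 18 other HMG-box genes, 5 (27.8%) had a promoter summit, within 500 bp of a start, and 10 (55.6%) had one in the gene or within 5 kb. They were Sox14 with 601.4, bbx (the gene bobby sox) with 299.2, Sox102F with 118.9, Hmg-2 with 107.9 and SoxN with 77.45. Sox14, a transcription factor that responds to ecdysone, had 397.5 in replicate 1 and 206.1 in replicate 2. The Sox14 peak was stronger than the HmgZ promoter peak in the conservative list (355.5) and in replicate 1 (129.8). In replicate 2 the HmgZ promoter peak, with 221.6, was the stronger. Of 13 FACT and other histone chaperone genes, 3 (23.1%) had a promoter summit, namely dre4, Spt6 with 81.66 and Set with 21.2, and 5 (38.5%) had one in the gene or within 5 kb. Of 9 other non-histone and linker chromatin protein genes, 2 (22.2%) had a promoter summit, Df31 with 287.2 and HP1b with 78.38, and 6 (66.7%) had one in the gene or within 5 kb. The Set peak is shared by position with the starts of Su(var)3-9 and eIF2gamma, and the HP1b peak with that of CG7246.

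The last list held 11 genes tied to Dorsal co-repression or to binding at Polycomb response elements. Of these, 7 (63.6%) had a promoter summit and 8 (72.7%) had one in the gene or within 5 kb. The strongest was at ph-p, which encodes the Polycomb group protein Polyhomeotic, with 1250 (745.0 in replicate 1 and 451.0 in replicate 2). The co-repressor gene gro had 391.0, cact, the inhibitor of Dorsal, had 197.8, and Trl, which encodes GAGA factor, had 152.5. The genes phol and psq had 147.4 and 99.59, the phol peak being shared by position with the starts of CG3552 and asRNA:CR45873. The shares of all these lists are read beside the 14.1% and 39.0% over all protein-coding genes. Because the lists were chosen with earlier results of these data known, the shares are a description and were not tested.

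Among 1653 other promoter peaks, the nearest in signal over the conservative list and both replicates (Euclidean distance on the log2 scale) to HmgZ-HmgD site 3 was that of the Hox gene Abd-B, at 0.13, with 344.6, 119.5 and 222.2. It was followed by the histone deacetylase gene HDAC1 at 0.27 and by CG31522 at 0.29. Nearest to Dsp1 site 2 were CG7330 at 0.063, eEF1gamma, a translation elongation factor gene, at 0.077, and the promoter shared by CG8067 and Ctf4 at 0.095. All distances rest on 3 values a peak, which are not independent, since the conservative list was made from both replicates.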

How the data were processed

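Anti-GFP ChIP-seq of CG32767-eGFP embryos was analysed from 8 deposited peak lists on dm6, 4 thresholded and 4 ranked, for replicate 1, replicate 2 and 2 comparisons of both (a conservative and a longer list). The lists have no header line; by their column layout the authors deposited for each peak a signal, a score scaled from the IDR and, in the ranked lists, a global IDR as −log10. The deposited signal was ranked only within a list. Replicates were set side by side by overlap of at least 1 bp, taking the strongest overlapping candidate, and the log2 ratio of their signals, for which no common scale is stated, is read only beside the same ratio over all conservative peaks. The deposited score of the thresholded lists has a minimum of 830, which corresponds to an IDR of 0.01. Per the labels, chromatin was sonicated. The sources used here name no aligner, peak caller or control handling, and a control was not analysed here. How an IDR was formed for a single replicate is not stated either. The files hold no read counts, so the depth is unknown and no interval is given for any signal.

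Summits were placed on Ensembl release 115 (BDGP 6.54) with Python 3.11.15, pandas 2.3.3 and numpy 2.4.6. Promoter means a summit within 500 bp of a TSS. Counting was tested on simulated peaks. The members, motifs and gene lists were chosen with earlier results of these data known. Named outside the members were CG9921, up to 6 promoter-bound genes a list (the strongest) and the 3 nearest promoter peaks, and genes at unselected candidates were named after their values were seen. Symbols without a match were CG8223, Parp and Psq. Other lists, windows, flanks, overlap rules and each replicate alone were tried as alternatives.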

Additional observations from a re-analysis of the deposited data

How the results depend on the processing

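HmgZ, HmgD and Dsp1 kept a summit in the gene or within 5 kb, and Ssrp none, under every alternative list, flank and overlap rule and in either replicate alone. Leaving out 1 replicate gave 8 to 11 peaks in place of 9, and 2 to 3 genes with a promoter summit in place of 2, HmgD being added when replicate 1 was left out. The 11 peaks of replicate 2 all overlapped the 9 conservative sites, because HmgZ-HmgD site 6 and Dsp1 site 1 each held 2 of them. The weaker of those at Dsp1 site 1 had a signal of only 2.96. HmgD was also added with peak overlap in place of summits and at 1000 bp around a TSS. The strongest peak of HmgZ and HmgD, the same site 2, sets the median rank percentile of 99.7, which was 98.9 without replicate 1 and 99.8 without replicate 2. That of Dsp1, 88.0, was 86.6 and 85.4 in the same order and 90.8 in the longer list. The number of sites that held each motif, summed over the 10 motifs, was 14. It fell to 9 with windows of 25 bp and rose to 22 with windows of 100 bp to either side of the summit. In these windows GAGAG was in 1 and 4 of the 9 sites, against 6.51% and 27.2% of the conservative summit windows. GAAAA was in 2 and 6, against 25.2% and 71.9%. The signed ratios had 1 alternative, the nearest summit within 100 bp, which gave identical values at the 8 sites it could be computed for. Identical values are no separate check of the ratios. The site left out was HmgZ-HmgD site 5, which had the highest ratio, 0.94. Of 66 alternatives in all, 13 moved a value, and these concern rank percentiles and motif counts. A rank percentile was called moved if it fell outside an exact binomial 95% interval around the main value. That interval treats the peaks of a list as independent. A count was called moved only if it changed more than 1.5-fold. The changes in peaks and in genes with a promoter summit given above were therefore not included. HmgZ-HmgD site 5 was absent when replicate 2 was left out. Precision is limited by 2 replicates and unknown depth. No paired analysis was possible because the study has 1 group.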
